A study of Mus musculus with 9 samples.

Results

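A set of 10 genes of the core TGF-β pathway was followed in RNA of sorted mouse liver macrophages, from the ligand (Tgfb1) through its receptors (Tgfbr1, Tgfbr2) and SMAD proteins (Smad2, Smad3, Smad4) to the inhibitors (Smad7, Ski, Skil) and a secreted target (Tgfbi). They were chosen by gene symbol, and all 10 were among the 23413 genes counted and among the 11393 that passed the filter on low counts. The study asked how diphenyleneiodonium (DPI), used there as an agonist of the receptor GPR3, acts on liver macrophages in diet-induced fatty liver. RNA-seq was done on 2 libraries from mice on normal chow (NC), 3 from mice on a high-fat diet (HFD) given vehicle, and 4 from mice on HFD given DPI. All mice were male C57BL/6 animals, 5 weeks old when the diets began, and stayed on them for 8 weeks. The NC diet had 10 kcal% fat and the HFD 60 kcal% fat. From week 3, by the study's methods, vehicle (polyethylene glycol) or DPI at 2 mg/kg was injected into the peritoneum every 5 days, so that the compound reached the whole animal and not macrophages alone. The sample labels describe another treatment, 500 nM DPI for 24 h, and the groups here are those named in the sample titles. Cells were sorted as F4/80+CD11b+Gr1low, and the sample titles name 1 mouse per library, although the study describes more mice per group than there are libraries.

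TGF-β1 is secreted in a latent form, and once released it joins the type II receptor TGFBR2 to the type I receptor TGFBR1. The active pair phosphorylates SMAD2 and SMAD3, which enter the nucleus with SMAD4 and switch target genes on or off, while SMAD7 blocks the receptor and SKI and SKIL hold SMAD complexes silent. In the liver the pathway is best known for driving fibrosis, with macrophages among the sources of the ligand, and in macrophages it also restrains inflammation.

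Library totals ran from 3534325 to 15585775 counts (median 4918629), with the deepest and the shallowest library both in the DPI group. The ribosomal RNA precursor Rn45s took 27% to 44.5% of them. Values below are CPM, the usual per-library scaling of counts to a common total, with edgeR's TMM factors, on which 3 counts equal 0.184 to 1.02 CPM. That floor covers counting error only, since the reads carry no molecular identifiers. The NC libraries stood apart from each other, with a rank correlation over genes of 0.74, where the median correlation of a library with the others of its group was 0.873 to 0.88 for vehicle and 0.841 to 0.868 for DPI. The biological coefficient of variation was 0.65, and p-values measure only the spread between these libraries. The general macrophage genes Lyz2, Cd68 and Csf1r were abundant in every library, whereas Marco, a scavenger receptor of resident macrophages, had at most 3 counts in 9 of 9 libraries, Timd4 in 7 of 9 and Vsig4 in 6 of 9. The Kupffer cell gene Clec4f had 0 and 244 counts in NC, 42, 0 and 0 under vehicle and 219, 6, 4 and 6 under DPI, so the cells are called sorted liver macrophages here. In such bulk libraries, fewer cells of a type and less RNA per cell cannot be told apart.

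Across the 9 libraries the order of the 10 genes, in CPM per kilobase of exon, was led by Tgfbi, an extracellular matrix protein that cells secrete in response to TGF-β. Its median level was 191 CPM per kilobase, and it stood above every other of these genes in 9 of 9 libraries. The next 4 genes had nearly the same median level. These were Tgfbr2 at 5.12, Skil at 5.12, Tgfbr1 at 5.07 and Smad4 at 4.73 CPM per kilobase, and Tgfbr2 exceeded Skil in 5 of 9 libraries, Skil exceeded Tgfbr1 in 4 of 9 and Tgfbr1 exceeded Smad4 in 5 of 9. Ski (3.83), Smad2 (3.51), Smad3 (3.26) and Smad7 (3.12 CPM per kilobase) followed, each above the next in 3 to 5 of 9 libraries, so that none of these neighbours was separated beyond the spread between libraries. The ligand gene Tgfb1 had the lowest median level, 1.76 CPM per kilobase, and lay below Smad7 in 7 of 9 libraries. Its place depended on the length used, because its exons cover 5042 bases while its longest transcript has 2573, and by the longest transcript its level was 3.45.

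**Figure D1:**
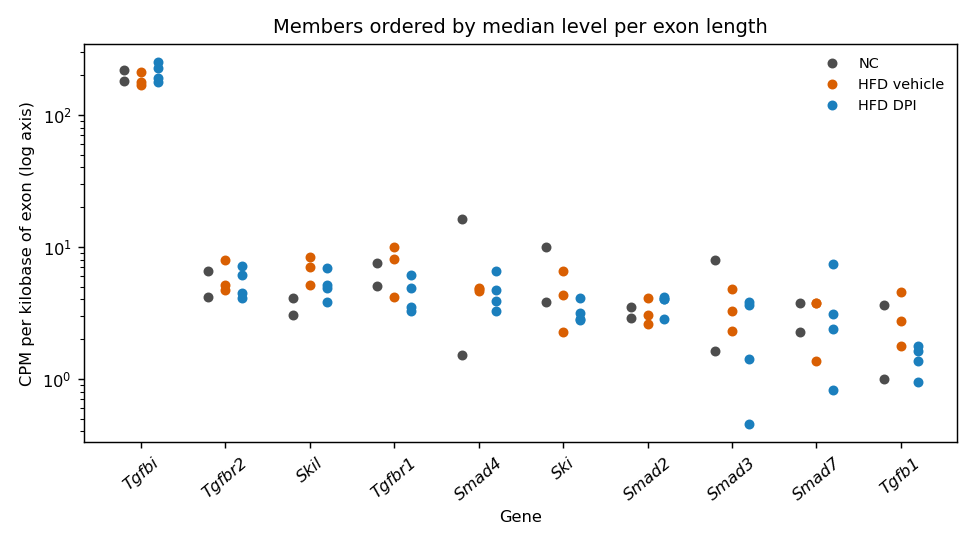
Level of each of the 10 genes in CPM per kilobase of exon on a log axis, with 1 point per library (n = 9) coloured by group and the genes ordered by median. Tgfbi stands far above the rest at a median of 191, and the other 9 genes have medians between 1.76 and 5.12 with overlapping points.

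The genes varied between libraries to different degrees. The highest library was 1.49 times the lowest for Tgfbi, 1.62 times for Smad2 and 1.94 times for Tgfbr2. At the other end it was 17.6 times the lowest for Smad3, 10.8 times for Smad4 and 8.95 times for Smad7. The spread was present inside groups. With a prior count of 2, the NC libraries differed by a median of 1.6-fold over these genes against 1.92-fold over all tested genes, vehicle libraries by 1.87-fold against 2.09-fold and DPI libraries by 1.82-fold against 2.56-fold.

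**Figure D2:**
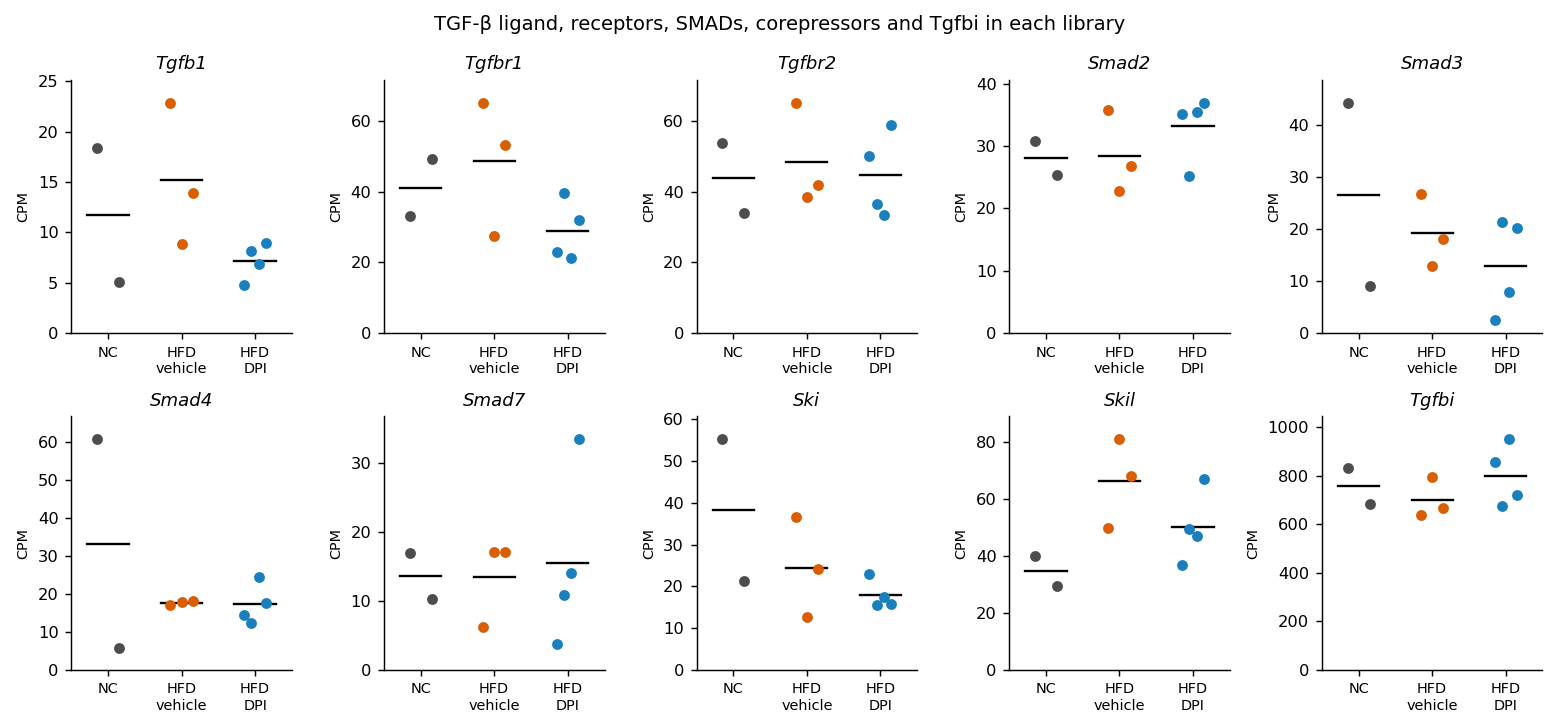
CPM of each gene by group, with 1 point per library and a bar at the mean of 2 NC, 3 HFD vehicle and 4 HFD DPI libraries. Smad4 and Smad3 split the NC libraries widely, Skil is higher in each vehicle library than in either NC library, and Tgfbi and Smad2 vary little.

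The first comparison asked what HFD changed in the absence of DPI. None of the 10 genes passed an adjusted p under 0.05 in the quasi-likelihood test of edgeR, adjusted by the Benjamini-Hochberg method, against 7 of 11393 genes, or 0.0614%. The count was also 0 of 10 by DESeq2, which called 319 genes of all, and by edgeR's likelihood ratio test, which called 280. By the rule of the study's methods, an unadjusted p under 0.05 and at least a 2-fold change, again 0 of 10 passed against 11.7% of all genes (7.03% higher and 4.63% lower). At an unadjusted p under 0.05 alone, 1 of 10 passed, Skil, against 13% of all genes. The median log2 fold change over the 10 genes was 0.00, beside 0.03 over all genes.

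Skil encodes a SKI-related corepressor, itself induced by TGF-β, that binds SMAD complexes. It had 40.1 and 29.3 CPM in NC, 49.9, 81.1 and 68.1 CPM under vehicle and 36.9, 49.6, 47.1 and 67.0 CPM under DPI. Every vehicle library was above both NC libraries, while the DPI libraries overlapped both groups. Such a separation of vehicle from NC was seen in 1 of the 10 genes and in 27.5% of all tested genes. The log2 difference of vehicle from NC was 0.94 ± 0.39 (SE, 95% interval 0.10 to 1.77), with an unadjusted p of 0.0303 and an adjusted p of 0.345. It kept its sign in 18 of 18 alternative settings (0.64 to 1.19). It reached 2-fold with an unadjusted p under 0.05 when NC 1 (1.19) or vehicle 1 (1.15) was left out, and missed that p in 4 of 18, without NC 2 (0.76) or vehicle 2 (0.77), scaled by totals (0.64) and with the replicate block (0.86).

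Ski, the founding gene of that corepressor family, lay in the opposite direction from Skil. It had 55.2 and 21.3 CPM in NC and 36.6, 12.7 and 24.0 CPM under vehicle, with overlapping groups and a log2 difference of -0.65 ± 0.54 (SE). Without NC 1 that difference was 0.20, so its direction rested on 1 library. Per kilobase, the ratio of Ski to Skil was 2.40 and 1.27 in NC, 1.28, 0.273 and 0.615 under vehicle and 1.08, 0.549, 0.645 and 0.409 under DPI.

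The ligand gene Tgfb1 had 18.4 and 5.04 CPM in NC and 22.9, 8.89 and 13.9 CPM under vehicle. The groups overlapped, and the log2 difference of 0.37 ± 0.71 (SE) turned to -0.25 without NC 2. Tgfbr1, the signalling type I receptor, had 33.2 and 49.3 CPM in NC and 65.3, 27.4 and 53.3 CPM under vehicle. Tgfbr2, the receptor that binds the ligand first, had 53.7 and 34.0 CPM in NC and 65.3, 38.5 and 41.9 CPM under vehicle. Both receptors overlapped between the groups, with log2 differences of 0.24 ± 0.46 and 0.15 ± 0.41 (SE) that turned to -0.06 and -0.15 when libraries were scaled by their totals.

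Among the SMADs, Smad2 was level, with 30.8 and 25.4 CPM in NC and 35.7, 22.9 and 26.8 CPM under vehicle (log2 difference 0.02 ± 0.40, SE, and -0.28 scaled by totals). Smad3, which unlike SMAD2 in its common form binds DNA directly, had 44.3 and 8.96 CPM in NC and 26.6, 12.9 and 18.1 CPM under vehicle. All 3 vehicle values of Smad3 fell between those of the NC libraries. Smad4, the shared partner of the receptor-activated SMADs, was the most uneven in NC, with 60.7 and 5.6 CPM, or 333 and 30 counts. The vehicle libraries had 17.1, 17.8 and 18.1 CPM, all between the NC values. The log2 difference of Smad4 was -0.91 ± 0.71 (SE) with both NC libraries, 1.66 without NC 1 and -1.75 without NC 2, and each of the last 2 passed the unadjusted 2-fold rule in opposite directions. For Smad3 the corresponding values were -0.47 ± 0.83 (SE), 1.1 and -1.18. No direction can be drawn for either gene from 2 NC libraries that differ this far.

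Smad7, the inhibitory SMAD that recruits ligases to the receptor, had 16.9 and 10.3 CPM in NC and 6.22, 17.1 and 17.1 CPM under vehicle, a log2 difference of -0.02 ± 0.79 (SE). Tgfbi, the most abundant of the genes, had 833 and 681 CPM in NC and 638, 795 and 668 CPM under vehicle. Its log2 difference of -0.11 ± 0.26 had the smallest SE of the 10, with a 95% interval of -0.67 to 0.45, so changes of 2-fold in either direction lay outside it.

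**Figure D3:**
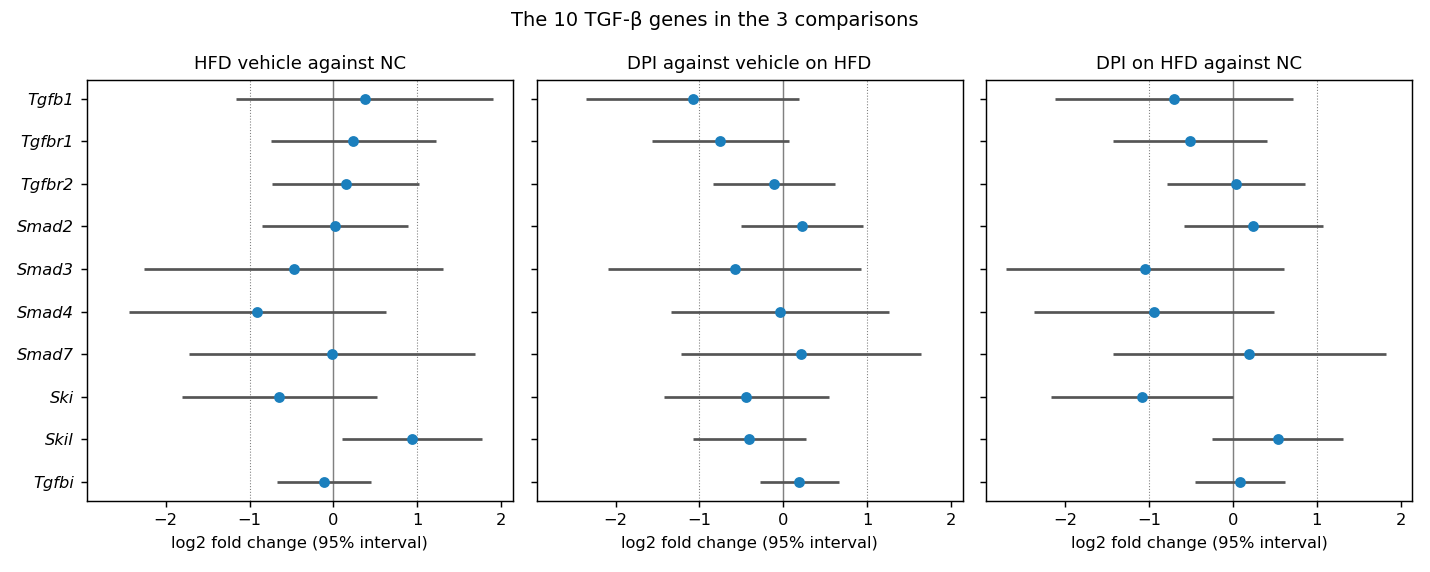
Fitted log2 fold change (points) with 95% interval (lines) of the 10 genes in each comparison, the dotted lines marking 2-fold in either direction. Only Skil in HFD vehicle against NC and Ski in DPI against NC have an interval clear of 0, and both intervals end close to it, at 0.10 and -0.01.

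The second comparison set DPI against vehicle on HFD. The study reports that mice given DPI gained less weight on this diet and had less fat in the liver. The part of these differences between the mice in the RNA levels was not tested. Of the 10 genes 0 passed the adjusted test, the rule of the methods, or an unadjusted p under 0.05. Over all genes these shares were 0%, 2.84% (1.5% higher and 1.34% lower) and 4.13%. DESeq2 and the likelihood ratio test, which called 2 genes and 1 gene of all, also gave an adjusted p under 0.05 for 0 of the 10. Complete separation of the groups was seen in 0 of the 10 genes and in 5.85% of all. The median log2 difference was -0.26 over the 10 genes and 0.04 over all genes, with 7 of the 10 negative. This comparison shares its vehicle libraries with the first and its DPI libraries with the third, so directions in them are not independent.

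Tgfb1 had 22.9, 8.89 and 13.9 CPM under vehicle and 4.78, 8.15, 6.87 and 8.98 CPM under DPI. The DPI libraries were close together, and 1 of them, DPI 4, lay above the lowest vehicle library by under 1 CPM. The counts were 103, 49 and 56 under vehicle and 78, 24, 37 and 88 under DPI. The log2 difference was -1.08 ± 0.59 (SE, 95% interval -2.35 to 0.19), with an unadjusted p of 0.0889 and an adjusted p of 0.999 in edgeR's quasi-likelihood test. It was negative in 18 of 18 alternatives (-1.36 to -0.67) and passed the unadjusted 2-fold rule in 3 of them. These were the fit of the 2 groups alone (-1.11) and the fits without NC 1 or without NC 2 (-1.08 in both), in which NC bears on the comparison only through the shared spread, filter and scaling. Platelets also carry TGF-β1, and the summed level of 6 platelet genes was 1.49 to 13.8 CPM under vehicle and 8.53 to 16.4 CPM under DPI. Stellate cell and fibroblast genes summed to 0.666 to 16.9 CPM under vehicle and 5.43 to 22.4 CPM under DPI, and 3 of 9, Col1a2, Reln and Des, had 0 counts in every library. Their part in the level of Tgfb1 was not tested.

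Tgfbr1 had 65.3, 27.4 and 53.3 CPM under vehicle and 22.9, 39.7, 21.3 and 32.0 CPM under DPI. Vehicle 1 and vehicle 3 were above all DPI libraries, and vehicle 2 lay inside the DPI range. The log2 difference was -0.75 ± 0.38 (SE, 95% interval -1.57 to 0.06), with an unadjusted p of 0.0683 and an adjusted p of 0.999 in the same test. Without vehicle 2 it was -1.04 and passed the unadjusted 2-fold rule. Tgfbr2 had 65.3, 38.5 and 41.9 CPM under vehicle and 50.1, 36.7, 33.6 and 58.9 CPM under DPI, fully overlapping, with a log2 difference of -0.11 ± 0.34 (SE). The per-kilobase ratio of Tgfbr1 to Tgfbr2 was 1.25, 0.892 and 1.59 under vehicle and 0.571, 1.36, 0.796 and 0.682 under DPI, and was 0.773 and 1.82 in NC.

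Smad2 had 35.1, 25.1, 35.4 and 36.9 CPM under DPI, and its log2 difference from vehicle was 0.22 ± 0.34 (SE, 95% interval -0.50 to 0.95). Smad3 had 2.51, 21.4, 7.79 and 20.2 CPM under DPI, a wide split inside 1 group. The low value of 2.51 CPM came from the deepest library, DPI 1, where it rested on 41 counts. The ratio of Smad3 to Smad2 per kilobase was accordingly 0.113 in DPI 1, 0.348 in DPI 3 and 0.867 and 1.35 in DPI 4 and DPI 2, against 0.893 to 1.18 under vehicle. The log2 difference of Smad3 was -0.58 ± 0.70 (SE). Smad4 had 14.5, 12.2, 24.5 and 17.6 CPM under DPI, around the vehicle values, with a log2 difference of -0.04 ± 0.61 (SE) that turned to 0.06 when scaled by totals.

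Of the inhibitors, Smad7 had 3.74, 10.9, 14.1 and 33.5 CPM under DPI, spanning the vehicle range on both sides. Its log2 difference of 0.21 ± 0.67 (SE) became -0.50 without DPI 4. Ski had 22.9, 15.6, 17.4 and 15.7 CPM under DPI, inside the vehicle range of 12.7 to 36.6, with a log2 difference of -0.44 ± 0.46 (SE). Skil, at 36.9 to 67.0 CPM under DPI, had a log2 difference from vehicle of -0.40 ± 0.31 (SE, 95% interval -1.08 to 0.27). Tgfbi had 854, 675, 949 and 722 CPM under DPI, overlapping vehicle, and a log2 difference of 0.19 ± 0.22 (SE, 95% interval -0.28 to 0.66).

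In the third comparison, DPI on HFD against NC, 0 of the 10 genes passed the adjusted test, against 0.00878% of all genes (1 gene). DESeq2 and the likelihood ratio test also gave 0 of the 10, where they called 219 and 186 genes of all. By the unadjusted 2-fold rule 1 of 10 passed, Ski, against 9.29% of all genes (6.24% higher and 3.05% lower), and the same 1 of 10 had an unadjusted p under 0.05, against 10.7%. None of the 10 separated the groups completely, as 20.2% of all genes did. The median log2 difference was -0.24 over the 10 genes beside 0.04 over all genes.

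Ski had 55.2 and 21.3 CPM in NC and 15.6 to 22.9 CPM under DPI. Only NC 1 stood above the DPI libraries, since NC 2 lay below DPI 1. The log2 difference was -1.09 ± 0.50 (SE, 95% interval -2.17 to -0.01), with an unadjusted p of 0.0488 and an adjusted p of 0.463 in edgeR's quasi-likelihood test. The call was lost in 9 of 18 alternatives, including those without NC 1 (-0.23), vehicle 1, vehicle 3, DPI 2, DPI 3 or DPI 4, and over those 9 the value ran from -1.08 to -0.23. Of the other 4 negative differences, 3 changed sign with the same NC library. Smad3 (-1.05 ± 0.77, SE), Smad4 (-0.94 ± 0.66) and Tgfb1 (-0.71 ± 0.66) turned to 0.52, 1.62 and 0.51 without NC 1, and without NC 2 they were -1.76, -1.79 and -1.33. Without NC 2, Smad4 passed the adjusted test (adjusted p = 0.0478 by edgeR), and without NC 1 it passed the unadjusted 2-fold rule in the other direction, so the 2 NC libraries gave opposite answers. Tgfbr1 (-0.51 ± 0.42, SE), Smad2 (0.24 ± 0.38) and Skil (0.53 ± 0.36) kept their sign in 18 of 18 alternatives without passing. Smad7 (0.20 ± 0.76), Tgfbi (0.08 ± 0.25) and Tgfbr2 (0.03 ± 0.38) did not, the last 2 turning to -0.13 and -0.17 when scaled by totals.

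Several of these signs depended on how libraries were scaled. With library totals in place of TMM factors, the median log2 difference of all genes moved from 0.03 to -0.26 in vehicle against NC, from 0.04 to 0.12 in DPI against vehicle and from 0.04 to -0.17 in DPI against NC. The median of the 10 genes moved with it, to -0.31, -0.17 and -0.46. Genes passing the unadjusted 2-fold rule split into 801 higher and 528 lower with TMM and 539 and 933 with totals in the first comparison, into 171 and 153 against 196 and 101 in the second, and into 711 and 347 against 546 and 624 in the third.

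The rest of the pathway was read from 5 lists, of ligands and antagonists, latent TGF-β activation, other receptors, SMAD regulators, and genes that respond to TGF-β or BMP. The lists were written with earlier results of these data known, so their counts of calls are descriptions. In vehicle against NC the response genes had the most calls. Of 19 listed, 12 were tested. By the unadjusted 2-fold rule 5 of these (Id1, Id2, Id3, Tsc22d1 and Tgm2) were higher and 0 lower, against 7.03% and 4.63% of all genes. By sign, 8 of the 12 were positive and 4 negative. The negative ones were Hpgd (-0.94 ± 0.53, SE), Fn1 (-0.72 ± 0.45), Cx3cr1 (-0.44 ± 0.52) and Klf10 (-0.02 ± 0.41). Vehicle and NC did not overlap in Hpgd. The median log2 difference was 0.81 beside 0.03 over all genes (0.54 and -0.26 scaled by totals). No gene of the 5 lists had an adjusted p under 0.05 in edgeR's quasi-likelihood test in any of the 3 comparisons. In alternatives the adjusted p fell below 0.05 for Tgif1, Id1, Id3 and Tsc22d1 in vehicle against NC and for Tgif1 and Tsc22d1 in DPI against NC, in each case by DESeq2 and the likelihood ratio test. It did so for Ppm1a in both without NC 2, and for Tgif1 in vehicle against NC also without NC 2 and with no filter. The response genes Ctgf, Cyr61 and Pmepa1 were too low to be tested.

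Id1, Id2 and Id3 encode inhibitors of helix-loop-helix factors and are best known as BMP targets. Id1 had 35.5 and 31.6 CPM in NC, 83.9, 90.5 and 73.3 CPM under vehicle and 60.2, 54.7, 74.0 and 55.9 CPM under DPI, so that every HFD library was above both NC libraries. Its log2 difference of vehicle from NC was 1.3 ± 0.33 (SE), with an adjusted p of 0.155 by edgeR, and it passed the unadjusted rule in 18 of 18 alternatives. Id3 had 220 and 136 CPM in NC, 437, 918 and 451 CPM under vehicle and 194, 408, 521 and 480 CPM under DPI. Only DPI 1 of the HFD libraries overlapped NC, and the differences from NC were 1.76 ± 0.46 under vehicle and 1.17 ± 0.44 under DPI (SE), the latter losing its call in 3 of 18 alternatives (without NC 2, scaled by totals, and with the replicate block). Id2 differed by 1.19 ± 0.43 (SE) in vehicle against NC, and lost its call without NC 1 or when scaled by totals (0.92). Tsc22d1, a leucine zipper gene first described as induced by TGF-β, had 10 and 0 counts in NC, 45, 150 and 55 under vehicle and 261, 16, 48 and 135 under DPI. Tgm2, a transglutaminase that takes part in activating latent TGF-β, had 86.7 and 50.8 CPM in NC, 171, 158 and 238 CPM under vehicle and 21.3, 94.4, 68.3 and 176 CPM under DPI. It was 1.46 ± 0.63 (SE) higher in vehicle on the log2 scale, without a call in 4 of 18 alternatives (without NC 2 or vehicle 3, scaled by totals, and with the replicate block). In DPI against vehicle its log2 difference was -1.07 ± 0.50 (SE, unadjusted p of 0.052 in edgeR's quasi-likelihood test). It missed the rule there but met it in 11 of 18 alternatives. Of the 12 response genes 0 passed in that comparison, where 2.84% of all genes did, a share too small to set 0 of 12 apart.

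**Figure D4:**
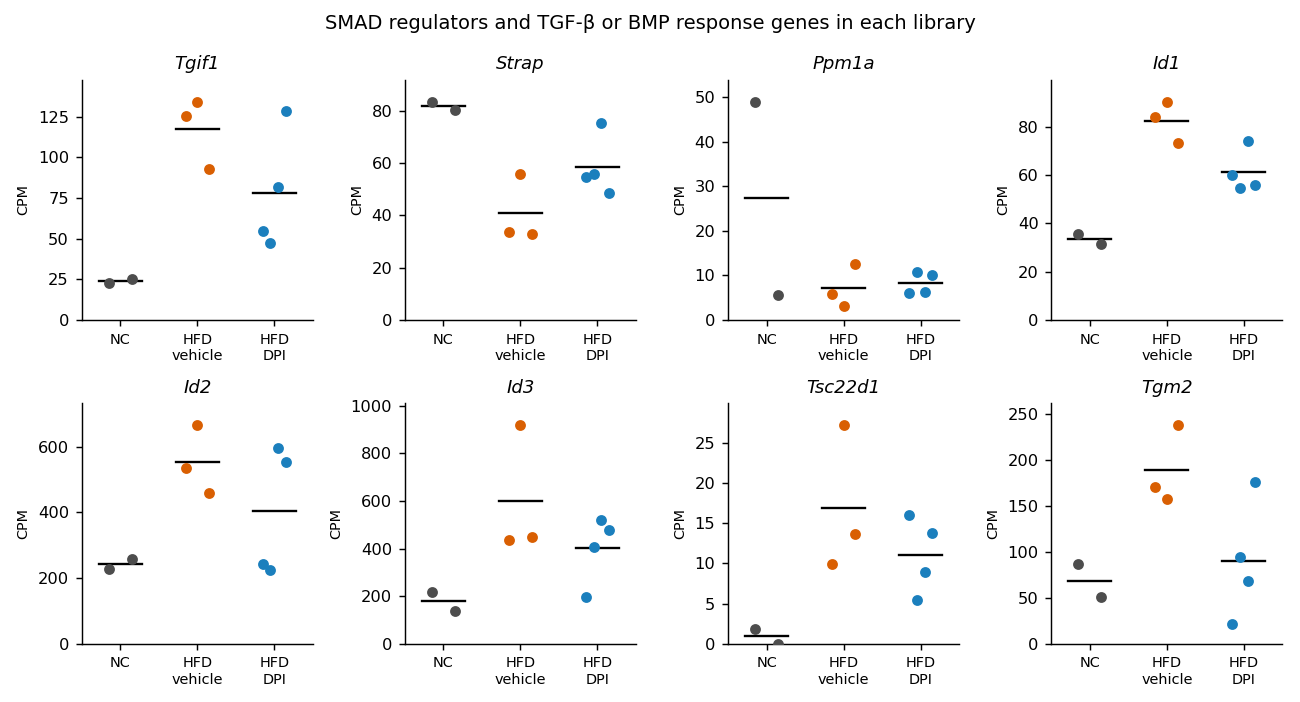
CPM by group of 3 SMAD regulators (Tgif1, Strap, Ppm1a) and 5 response genes (Id1, Id2, Id3, Tsc22d1, Tgm2), with 1 point per library and a bar at the group mean. Tgif1 is near 24 CPM in both NC libraries and at least 47.6 CPM in every HFD library, while the high mean of Ppm1a in NC comes from 1 library.

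Among SMAD regulators, 22 of 23 were tested in vehicle against NC, where 1 was higher (Tgif1) and 2 lower (Strap, Ppm1a) by the unadjusted rule, with a median of -0.27. That is 3 of 22, near the 11.7% of all genes called by this rule. Tgif1 encodes a homeodomain corepressor that binds SMAD2. It had 22.9 and 25.2 CPM in NC, 126, 134 and 92.9 CPM under vehicle and 54.7, 47.6, 82.0 and 128 CPM under DPI. No HFD library overlapped NC. The log2 difference was 2.29 ± 0.46 (SE, 95% interval 1.31 to 3.27) in vehicle against NC, with an adjusted p of 0.081, and 1.70 ± 0.43 in DPI against NC, with an adjusted p of 0.186, both by edgeR's quasi-likelihood test. It passed the unadjusted rule in 18 of 18 alternatives in both, and in the first its adjusted p ranged from 0.00019 to 0.201 and was under 0.05 in 4. Strap, which links SMAD7 to the receptor, differed by -1.01 ± 0.36 (SE), at 83.4 and 80.3 CPM in NC against 33.5, 55.9 and 32.7 CPM under vehicle, and lost its call in 6 of 18 alternatives, among them those without NC 1, vehicle 1, vehicle 3 or DPI 2. Ppm1a, a phosphatase of SMAD2 and SMAD3, had 49.0 and 5.6 CPM in NC, and its differences of -1.94 in vehicle and -1.71 in DPI turned to 0.35 and 0.58 without NC 1. Its call was lost in 5 of 18 alternatives in the first, the others being without vehicle 1 (-1.76) or vehicle 2 (-1.57), the 2-group fit and the replicate block. In the second it was lost in 7 of 18, the others being without vehicle 1 (-1.67) or any 1 DPI library (-1.83 to -1.58) and the replicate block. Smad1, a SMAD of the BMP branch, had 13.5 and 16.3 CPM in NC and 4.76 to 5.82 CPM under DPI, a difference of -1.48 ± 0.65 (SE) that lost its call when any 1 NC or DPI library was left out.

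Fewer genes of the remaining lists were abundant enough to read. Of 14 ligands and antagonists 6 were tested, of 13 activation genes 8 and of 10 receptors 9. In vehicle against NC the calls by the unadjusted rule were 1 lower ligand (Bmp2), 1 higher and 2 lower activation genes (Mmp14 against Ltbp1 and Ltbp4) and 2 higher and 1 lower receptors (Acvr2a and Bmpr2 against Bmpr1a), again beside 7.03% higher and 4.63% lower over all genes. The median log2 differences over the genes tested were 1.2 for ligands, 0.04 for activation and 0.05 for receptors. Mmp14, a membrane protease, had 41 and 3 counts in NC and 107, 95 and 71 under vehicle, and Acvr2a, an activin receptor, had 6 and 29 counts in NC and 173, 44 and 105 under vehicle. Acvr2a lost its call in 3 of 17 alternatives (without NC 1 or vehicle 1, and with the replicate block), and Mmp14 in 4 of 17 (without NC 2 or vehicle 1, scaled by totals, and in the 2-group fit). Bmpr1a and Bmpr2, receptors of BMPs, rested on few counts, with Bmpr1a at 34 and 0 in NC and 0 in all vehicle libraries, and Bmpr2 at 2 and 1 in NC and 27, 7 and 15 under vehicle. Leaving out any 1 library of the groups compared ended the call of Bmpr1a, except NC 2, and that of Bmpr2, except vehicle 2.

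Bmp2, which endothelial cells of the liver make, had 2 and 35 counts in NC, 0 in all vehicle libraries and 93, 10, 0 and 1 under DPI. Ltbp4, a binding protein of latent TGF-β in the matrix, had 56 and 13 counts in NC, 0 in all vehicle libraries and 91, 3, 0 and 0 under DPI. These were the only genes of the 5 lists called in DPI against vehicle, both higher, and both calls were lost without DPI 1 or without any vehicle library. That is 1 of 6 tested ligands and 1 of 8 activation genes, with 0 of 9 receptors, 0 of 22 SMAD regulators and 0 of 12 response genes. Over all genes 2.84% were called by this rule (1.5% higher and 1.34% lower), and the calls in the lists were near that share. Like Bmp2 and Ltbp4, the summed level of 7 endothelial genes was lower in each vehicle library than in NC. It was 180 and 284 CPM in NC, 26.6, 15.2 and 29.0 CPM under vehicle and 203, 86.6, 10.8 and 42.2 CPM under DPI. Within NC, Ltbp4 went against this sum, with more counts in NC 1 than in NC 2. A member of that list, Pecam1, an adhesion gene also found on leukocytes and platelets, went the other way in vehicle against NC, at 5 and 6 counts in NC and 39, 50 and 7 under vehicle. The part of the endothelial genes in these results was not tested. Ltbp1, which also binds latent TGF-β, had 13 and 24 counts in NC and 0, 1 and 0 under vehicle. In vehicle against NC the call of Bmp2 was lost in 3 of 16 alternatives (without NC 2 or vehicle 2, and with the replicate block), and that of Ltbp1 in 4 of 17 (without NC 2, vehicle 1 or vehicle 3, and with the block).

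Other cell types left traces that also differed between libraries. Summed marker levels ran from 593 to 5000 CPM for neutrophils, 160 to 431 CPM for hepatocytes, 30.1 to 169 CPM for eosinophils, 55.0 to 394 CPM for T and NK cells and 14.9 to 397 CPM for B cells, beside 15200 to 44500 CPM for the 12 macrophage and Kupffer cell genes, most of it Lyz2 (13980 to 42930 CPM). In vehicle against NC, 8 of the 9 tested genes of that macrophage list had a negative difference and 2 passed the unadjusted rule, both lower, beside 4.63% lower over all genes. The exception in sign was Cd68 (0.53 ± 0.28, SE), a lysosomal macrophage gene whose groups did not overlap. Those that passed were Emr1, the gene of the sorting marker F4/80, at 139 and 115 CPM in NC and 61.5, 67.3 and 55.0 CPM under vehicle (-1.05 ± 0.38, SE), and C1qa, a complement gene of macrophages, at 92.5 and 82.2 CPM against 39.7, 41.5 and 19.8 CPM (-1.37 ± 0.57, SE). Vehicle and NC overlapped in the neutrophil (2190 to 3450 against 961 and 2860 CPM) and T and NK cell sums, and did not in those of hepatocytes (160 to 199 against 292 and 431 CPM) and B cells (93.2 to 175 against 14.9 and 65.6 CPM). By the unadjusted rule in that comparison, 2 of 6 T and NK cell genes (Cd3e, Lck) and 1 of 4 B cell genes (Cd79b) were higher, 3 of 7 hepatocyte genes (Alb, Ttr, Serpina1a), 4 of 7 endothelial genes (Kdr, Clec4g, Ptprb, Dnase1l3) and 1 of 7 neutrophil genes (Camp) were lower, and Pecam1 was higher. Cd3e, a T cell receptor subunit, had 6.92 and 9.9 CPM in NC and 31.7, 25.4 and 61.2 CPM under vehicle. In DPI against vehicle, 10 marker genes passed the unadjusted rule, all higher, beside 1.5% higher over all genes. They were 3 of 4 tested eosinophil genes (Prg2, Epx, Ear1), 3 of 7 neutrophil genes (Camp, Ngp, Ltf), 2 of 7 endothelial genes (Clec4g, Dnase1l3) and 2 of 9 macrophage genes (C1qa, C1qc). The more abundant neutrophil genes S100a8 (-0.38 ± 0.69, SE), S100a9 (-0.31 ± 0.75) and Retnlg (-0.69 ± 0.73) and the eosinophil gene Ear2 (-0.41 ± 0.32) had negative differences and did not pass. Prg2 had 0, 10 and 0 counts under vehicle and 1296, 265, 2 and 468 under DPI, and the eosinophil sums were 68.1, 64.7 and 52.8 CPM against 152, 169, 30.1 and 101 CPM. In DPI against NC, 3 of 4 eosinophil genes and 3 of 6 T and NK cell genes were higher by this rule. So were 1 of 4 B cell genes and 1 of 7 endothelial genes, while 3 of 7 hepatocyte genes were lower. Of the macrophage list 0 of 9 passed, beside 6.24% higher and 3.05% lower over all genes. The part of these cells, and of the macrophage genes, in the pathway calls and in the levels of Ski, Skil, Tgfb1, Tgfbr1 and Tgm2 was not tested.

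Among the remaining genes named by the fixed rule for DPI against vehicle, Nedd4l, a ligase that acts on SMADs, differed by 1.27 ± 0.63 (SE), Smad6, the inhibitory SMAD of the BMP branch, had 0, 4 and 0 counts under vehicle and 49, 15, 24 and 3 under DPI, and Id1 differed by -0.43 ± 0.26 (SE). Acvr2a differed by -1.29 ± 0.81 (SE), and Bmpr1a had 0 counts under vehicle and 0, 0, 16 and 40 under DPI. None of these passed the rule in the fit used throughout. In the alternatives Nedd4l passed in 5 of 18, Smad6 in 5 of 17 and Bmpr1a in 8 of 16. Of the fits with a library left out, Nedd4l passed without vehicle 2 (1.81), NC 1 or NC 2 (both 1.26), Smad6 without vehicle 2 or NC 2, and Bmpr1a without NC 1, NC 2, DPI 1 or DPI 2. In DPI against NC, where 9.29% of all genes met the rule, it was met by 2 of 12 response genes (Id3, Tsc22d1), 3 of 22 SMAD regulators (Tgif1, Smad1, Ppm1a), 1 of 9 receptors (Bmpr2), 0 of 6 ligands and 0 of 8 activation genes. The shares of regulators and receptors were near that background. Bmpr2 had 10, 15, 22 and 38 counts under DPI, and its call was lost in 8 of 17 alternatives, among them those without NC 1, NC 2, DPI 2, DPI 3 or DPI 4. Of ligands, Gdf15, a stress-induced cytokine of the family, had 56 and 14 counts in NC and 142, 71, 39 and 166 under DPI, and Tgfb3 had 0 in both NC libraries and 0, 1, 2 and 20 under DPI. Gdf15 missed the rule (log2 difference 1.14 ± 0.70, SE) and met it without NC 1 (2.43). Thbs1, a matrix protein that can release active TGF-β, had 199 and 163 CPM in NC, 574, 594 and 818 CPM under vehicle and 91.1, 79.1, 431 and 1231 CPM under DPI. Neutrophil sums were 593, 674, 3440 and 5000 CPM in the same DPI libraries, 961 and 2860 CPM in NC and 2190, 2950 and 3450 CPM under vehicle, and their part in its level was not tested. The log2 difference of Thbs1 from NC was 1.34 ± 0.85 (SE), 0.15 without DPI 4, and past the rule without DPI 1 (1.69) or DPI 2 (1.73). Lrrc32, which displays latent TGF-β on the cell surface, had 5.58, 0, 3.9 and 0.816 CPM under DPI and 0.364 and 0 CPM in NC.

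As a description of how the genes moved across the 9 libraries, log2 CPM values of the 45 pairs among the 10 genes had a median Pearson r of 0.29, and 28 pairs were positive. The highest was 0.824, between Tgfb1 and Smad3, and the lowest was -0.916, between Tgfbr1 and Tgfbi. The libraries share groups and scaling factors, so these values describe the 9 points only. Of 11392 other genes, those most like Tgfb1 were Srsf11 (r = 0.972), a splicing factor gene, Hsp90aa1 (r = 0.966), a chaperone gene, and Tlr4 (r = 0.947), the lipopolysaccharide receptor. Those most like Tgfbi were Eif4h (r = 0.936), a translation factor gene, Lrig2 (r = 0.931) and Tslp (r = 0.917), the last with 0 counts in 5 of 9 libraries.

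On the mouse assembly GRCm38 the genes lie on 6 chromosomes. In the GENCODE M21 annotation, Tgfb1 spans chromosome 7 from 25687002 to 25705077, Tgfbr1 chromosome 4 from 47353222 to 47414931 and Tgfbr2 chromosome 9 from 116084293 to 116175360. Smad3 spans chromosome 9 from 63646767 to 63757994, and Smad2, Smad4 and Smad7 all lie on chromosome 18, from 76241580 to 76310963, 73639009 to 73703780 and 75367529 to 75395935. Ski spans chromosome 4 from 155154075 to 155222592, Skil chromosome 3 from 31095058 to 31122577 and Tgfbi chromosome 13 from 56609523 to 56639562. Counts cover the exons of each gene as a whole.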

How the data were processed

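RNA-seq of sorted liver macrophages gave 9 libraries in 3 groups, taken from the sample titles. Reads were mapped to mm10 by the authors, who deposited unnormalized gene counts as whole numbers. The methods name bowtie2 and RSEM, the submitters' processing notes TopHat2 and edgeR, and strand is not given in the sources used here. From the deposited counts, low genes were removed by filterByExpr and TMM factors set, and all 9 libraries in 3 groups entered a quasi-likelihood fit (edgeR 4.0.16, R 4.3.3), adjusted by the Benjamini-Hochberg method over 11393 genes. Intervals are at 95%. Calls used an adjusted p under 0.05, or the rule of the methods, an unadjusted p under 0.05 and at least 2-fold. Depth was 3534325 to 15585775 counts, and 3 counts were taken as the floor.

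The 10 genes, the pathway lists and the marker lists were chosen with earlier results of these data known. The text names all 10 genes, each list gene called by either rule, otherwise at most 2 with the smallest p per list, and the 3 genes most like Tgfb1 and Tgfbi. The response genes with a negative difference in vehicle against NC are named as well. CPM per kilobase used GENCODE M21 exons. Alternatives were RLE and total-count scaling, no filter or at least 10 counts in every library, DESeq2 1.42.0, edgeR's likelihood ratio test, 2-group fits, a replicate block, removal of Rn45s, and each library left out. The scripts were tested on simulated data. Other tools were Python 3.11.15, numpy 2.4.6, pandas 2.3.3 and matplotlib 3.10.9.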

Additional observations from a re-analysis of the deposited data

Results flagged for a closer look

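Smad2 stood out in the DPI group, where the lowest of 4 libraries, DPI 2 at 25.1 CPM, was far from the others at 35.1, 35.4 and 36.9 CPM. The gap to its neighbour was 0.846 of the range of the group, above the 95% critical value of Dixon's test for 4 values. Chance alone passes that value in about 1 in 20 groups, and 10 genes were tested. The NC and vehicle groups, with fewer than 4 libraries, were not tested in this way. DPI 2 was the shallowest library, and its level lay within the vehicle range of 22.9 to 35.7 CPM.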

How the results depend on the processing

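These results are limited by the spread between libraries and by 2 unlike NC libraries. The biological coefficient of variation was 0.65. Few genes passed the adjusted quasi-likelihood test, a number that also depended on the test used, and several signs against NC rested on NC 1. No adjusted call was made for any of the 10 genes except Smad4 without NC 2 in DPI against NC. Causes of the changes below were not tested.

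In vehicle against NC, genes with an adjusted p under 0.05 numbered 7, but 1 with scaling by totals or at least 10 counts in every library, 52 with no filter, 319 by DESeq2, 280 by the likelihood ratio test and 0 in the 2-group fit. By the unadjusted 2-fold rule 726 passed with at least 10 counts in every library, where fewer genes were tested. Log2 differences that changed sign were Smad2 (-0.013 with RLE and -0.014 with DESeq2), Tgfbr1, Tgfbr2 and Smad2 with totals (-0.059, -0.15 and -0.28) and Smad7 without Rn45s (0.021). In DPI against vehicle the unadjusted rule gave 602 genes with no filter and 202 with at least 10 counts in every library, and the adjusted test 2 by DESeq2 and 1 by the likelihood ratio test. Of the 10 genes, 1 (Tgfb1) passed the unadjusted rule in the 2-group fit, and Smad4 was 0.058 with totals. In DPI against NC, adjusted calls numbered 22 with no filter, 219 by DESeq2, 186 by the likelihood ratio test and 0 in the 2-group fit, and the unadjusted rule gave 527 with at least 10 counts in every library. The call of Ski was lost, leaving 0 of the 10, in the 2-group fit and without Rn45s. Tgfbr2 was -0.0060 with RLE, -0.0049 with DESeq2 and -0.17 with totals, and Tgfbi was -0.13 with totals.

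Same-numbered libraries of different groups had correlations of their deviations between -0.0222 and 0.0841, and not every library correlated best with its own number, so the samples share only a number. With the replicate block, adjusted calls fell to 0 in vehicle against NC and in DPI against NC, and Ski lost its call, leaving 0 of the 10. Under the block, Smad2 was -0.026 in vehicle against NC, Smad7 was -0.56 in DPI against vehicle and -1.12 in DPI against NC, Tgfbr2 was -0.011 there, and Thbs1 was -0.75.

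With each library left out in turn, adjusted calls ran from 1 to 568 in vehicle against NC and from 1 to 572 in DPI against NC, the highest without NC 2. By the unadjusted rule they ran from 1027 to 2634, from 187 to 543 (DPI against vehicle) and from 830 to 2626. Calls among the 10 genes ran from 0 to 2, 0 to 1 and 0 to 3, and adjusted calls in DPI against NC from 0 to 1. In vehicle against NC the log2 difference ran from -0.25 to 1.59 for Tgfb1, -0.015 to 0.58 for Tgfbr1, -0.12 to 0.52 for Tgfbr2, -0.13 to 0.17 for Smad2, -1.18 to 1.1 for Smad3, -1.75 to 1.66 for Smad4, -0.30 to 0.40 for Smad7, -1.15 to 0.20 for Ski, -0.22 to 0.050 for Tgfbi and -2.76 to 0.35 for Ppm1a. In DPI against vehicle it ran from -0.27 to 0.16 for Tgfbr2, -0.26 to 0.083 for Smad4 and -0.50 to 0.54 for Smad7. In DPI against NC it ran from -1.33 to 0.51 for Tgfb1, -0.23 to 0.41 for Tgfbr2, -1.76 to 0.52 for Smad3, -1.79 to 1.62 for Smad4, -0.52 to 0.60 for Smad7, -0.028 to 0.24 for Tgfbi and -2.53 to 0.58 for Ppm1a. Where NC was left with 1 library, that library was assumed to vary like the other groups.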
